A study of Saccharomyces cerevisiae with 16 samples.

Results

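The genes described here encode enzymes of the tricarboxylic acid (TCA) cycle in the budding yeast *Saccharomyces cerevisiae*, with the cytosolic malate dehydrogenase MDH2 beside them, and are together called the TCA genes below. They were chosen by name, with earlier results of these data known. They are 10 genes out of the 5574 features listed in every library: CIT1 (YNR001C), ACO1 (YLR304C), IDH1 (YNL037C), IDH2 (YOR136W), KGD1 (YIL125W), KGD2 (YDR148C), LPD1 (YFL018C), FUM1 (YPL262W), MDH1 (YKL085W) and MDH2 (YOL126C). All 10 were measured in every library and passed the filter on low levels in both assays. Ribosome footprints, the mRNA fragments that ribosomes shield from nuclease, were sequenced from 3 can1Δ, 2 rpl22aΔ, 2 tor1Δ and 3 wild-type libraries, and fragmented mRNA from 2 can1Δ, 1 rpl22aΔ, 1 tor1Δ and 2 wild-type libraries. Every strain was BY4741, a haploid laboratory strain, grown in the glucose medium YPD to an optical density (OD600) of 0.5. The can1Δ strain lacks the plasma membrane arginine permease, rpl22aΔ lacks a large-subunit ribosomal protein that has a paralog in the genome, and tor1Δ lacks a kinase of the nutrient-sensing TORC1 complex. The series links loss of CAN1 to replicative lifespan through translation, and the comparisons below ask how each deletion changed ribosome occupancy and mRNA of the TCA genes. The labels give neither the construction of the deletions nor the number of clones, and they do not state whether replicates are separate cultures. The p-values therefore measure how these libraries spread, which may be technical.

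The TCA cycle runs in the mitochondrial matrix. Citrate synthase joins acetyl-CoA to oxaloacetate, aconitase and NAD-dependent isocitrate dehydrogenase turn citrate into alpha-ketoglutarate, the alpha-ketoglutarate dehydrogenase complex and succinyl-CoA ligase lead on to succinate, and succinate dehydrogenase, fumarase and malate dehydrogenase restore oxaloacetate. In yeast growing on glucose, fermentation supplies most energy and many of these genes are glucose-repressed, while the first steps of the cycle still supply alpha-ketoglutarate for glutamate and lysine. MDH2 is the cytosolic malate dehydrogenase, best known for gluconeogenesis and for rapid degradation of its protein when glucose is added.

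The library labels matched the deleted genes. CAN1 had between 1 and 2 reads in the can1Δ footprint libraries against 208 to 582 in wild type, RPL22A had 5 and 17 in rpl22aΔ against 1883 to 7862, and TOR1 had 2 and 1 in tor1Δ against 129 to 285. The auxotrophic markers shared by all strains were also absent, with 0 reads for LEU2 and URA3 in every library and at most 1 for MET17. Footprint libraries held between 2.52 and 8.70 and mRNA libraries between 7.65 and 26.6 in units of 1e6 reads. The TCA genes were covered by 96 to 3967 reads per footprint library and 201 to 5302 per mRNA library, the fewest being those of CIT1 in rpl22aΔ footprint replicate 2. Levels are RPKM (reads per kilobase of listed length and per 1e6 reads) after scaling between libraries, which allows genes of different length to be compared. In such bulk libraries a lower level per cell and a smaller share of cells that express a gene cannot be told apart.

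Each gene is a single exon on genome build R64, overlaps no other annotated gene and shares no stretch of 28 bases of its coding sequence with the rest of the genome. CIT1 lies at chrXIV:629622-631061, ACO1 at chrXII:735212-737548, IDH1 at chrXIV:557920-559002 and KGD2 at chrIV:753675-755066. LPD1 lies at chrVI:101628-103127 and MDH2 at chrXV:81787-82920, and these 6 are on the minus strand. IDH2 is at chrXV:580250-581359, KGD1 at chrIX:122689-125733, FUM1 at chrXVI:47336-48802 and MDH1 at chrXI:279123-280127, all on the plus strand. CIT1 and IDH1 share chromosome XIV, and IDH2 and MDH2 share chromosome XV.

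The DNA elements CCAAT and GTCAC are textbook binding sites of regulators of this pathway, and the upstream sequences are shown to describe where these elements occur. Whether either element bears on the changes reported below was not tested. The Hap complex, with HAP4 as its activating subunit, binds CCAAT, and the retrograde factors RTG1 and RTG3 bind GTCAC. Windows of 250 bases, from 400 to 151 bases before the start codon, were read from the R64 sequence 5′ to 3′ on the gene's strand. CCAAT or its reverse complement ATTGG occurred in 8 of the 10 windows, all but those of IDH1 and IDH2, against 38.8% of 6001 gene windows. GTCAC or its reverse complement GTGAC occurred in 5 of 10, those of CIT1, IDH1, KGD1, LPD1 and FUM1, against 25.2% of all windows. The motifs share no bases with each other in the sequences printed, and a match is a description of the letters, not of binding. The 5 windows below hold both motifs (CIT1, KGD1, FUM1), CCAAT alone (MDH2) or neither (IDH2), with matches in capitals.
CIT1, chrXIV:631212-631461, minus strand: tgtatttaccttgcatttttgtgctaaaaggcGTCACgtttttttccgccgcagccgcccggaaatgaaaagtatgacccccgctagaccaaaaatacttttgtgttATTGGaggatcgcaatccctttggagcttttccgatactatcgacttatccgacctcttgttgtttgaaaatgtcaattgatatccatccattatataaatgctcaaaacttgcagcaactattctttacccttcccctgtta
KGD1, chrIX:122289-122538, plus strand: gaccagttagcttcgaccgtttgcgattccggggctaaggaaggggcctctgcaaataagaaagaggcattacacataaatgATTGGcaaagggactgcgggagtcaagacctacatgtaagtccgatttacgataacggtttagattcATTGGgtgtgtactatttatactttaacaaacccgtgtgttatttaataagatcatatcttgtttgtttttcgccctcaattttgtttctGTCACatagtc
IDH2, chrXV:579850-580099, plus strand: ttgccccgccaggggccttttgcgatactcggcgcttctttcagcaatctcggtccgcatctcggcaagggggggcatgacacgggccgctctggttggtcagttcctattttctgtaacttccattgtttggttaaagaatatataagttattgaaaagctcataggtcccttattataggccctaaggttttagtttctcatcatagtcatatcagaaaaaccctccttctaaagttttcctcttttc
FUM1, chrXVI:46936-47185, plus strand: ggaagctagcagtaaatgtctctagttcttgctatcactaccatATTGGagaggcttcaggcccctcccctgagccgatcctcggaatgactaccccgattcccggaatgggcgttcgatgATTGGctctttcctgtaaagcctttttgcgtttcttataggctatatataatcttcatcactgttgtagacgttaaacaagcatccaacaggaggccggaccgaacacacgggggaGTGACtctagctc
MDH2, chrXV:83071-83320, minus strand: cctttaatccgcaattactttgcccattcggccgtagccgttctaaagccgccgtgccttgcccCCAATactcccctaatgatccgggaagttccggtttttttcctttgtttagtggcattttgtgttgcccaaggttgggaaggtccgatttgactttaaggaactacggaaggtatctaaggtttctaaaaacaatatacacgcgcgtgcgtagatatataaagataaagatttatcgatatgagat

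In wild-type cells the footprint level separated the enzymes into tiers. ACO1, aconitase, averaged 230 ± 48.3 RPKM (SD, n = 3), and IDH2, the catalytic subunit of isocitrate dehydrogenase, averaged 212 ± 39.5 RPKM. LPD1, the dihydrolipoamide dehydrogenase shared by several complexes, averaged 211 ± 5.80 RPKM, and the ranges of these 3 genes overlapped. IDH1, the regulatory subunit of isocitrate dehydrogenase, followed with 153 ± 20.1 RPKM, below all 3 LPD1 values. The ranges of neighbours then overlapped through MDH2 (131 ± 21.5 RPKM), FUM1, fumarase (108 ± 5.29 RPKM), KGD2, the succinyltransferase of the alpha-ketoglutarate dehydrogenase complex (101 ± 9.37 RPKM), and MDH1, the mitochondrial malate dehydrogenase (98.7 ± 5.84 RPKM). KGD1, the decarboxylase subunit that starts that complex's reaction, stood apart at 60.1 ± 0.305 RPKM, and CIT1, mitochondrial citrate synthase, was lowest at 47.5 ± 2.23 RPKM. LPD1 thus had more footprints per length than KGD2, and KGD1 fewer than KGD2, although all 3 belong to the same complex.

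The mRNA levels had another order. Wild-type LPD1 mRNA averaged 134 RPKM (n = 2), IDH1 86.8 RPKM and MDH2 70.6 RPKM, while CIT1 had 31.6 RPKM and KGD1 9.23 RPKM, the lowest of the 10. Footprint level divided by mRNA level was above the all-gene median of 0.916 for each of the 10 genes in wild type, from 1.5 for CIT1 to 6.51 for KGD1. The KGD1 ratio exceeded that of 99.2% of 4897 features, ACO1 followed at 3.83 and IDH2 at 3.22. The ratio depends on the scaling within each assay and is used here only to order genes within wild type.

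The clearest change was in rpl22aΔ footprints, where 9 of the 10 genes were lower than in wild type and FUM1 was not. Their log2 fold changes ran from −1.92 for MDH2 to −0.70 for IDH1. An unadjusted p under 0.05 in limma was reached by 9 of the 10 genes, beside 34.2% of all features. The median over the 10 genes was −0.94 on the log2 scale, beside a median of 0.00054 over all 4900 features tested. In that comparison 19% of features passed in either direction and 10.5% were lower (limma, Benjamini-Hochberg adjusted p under 0.05).

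**Figure D1:**
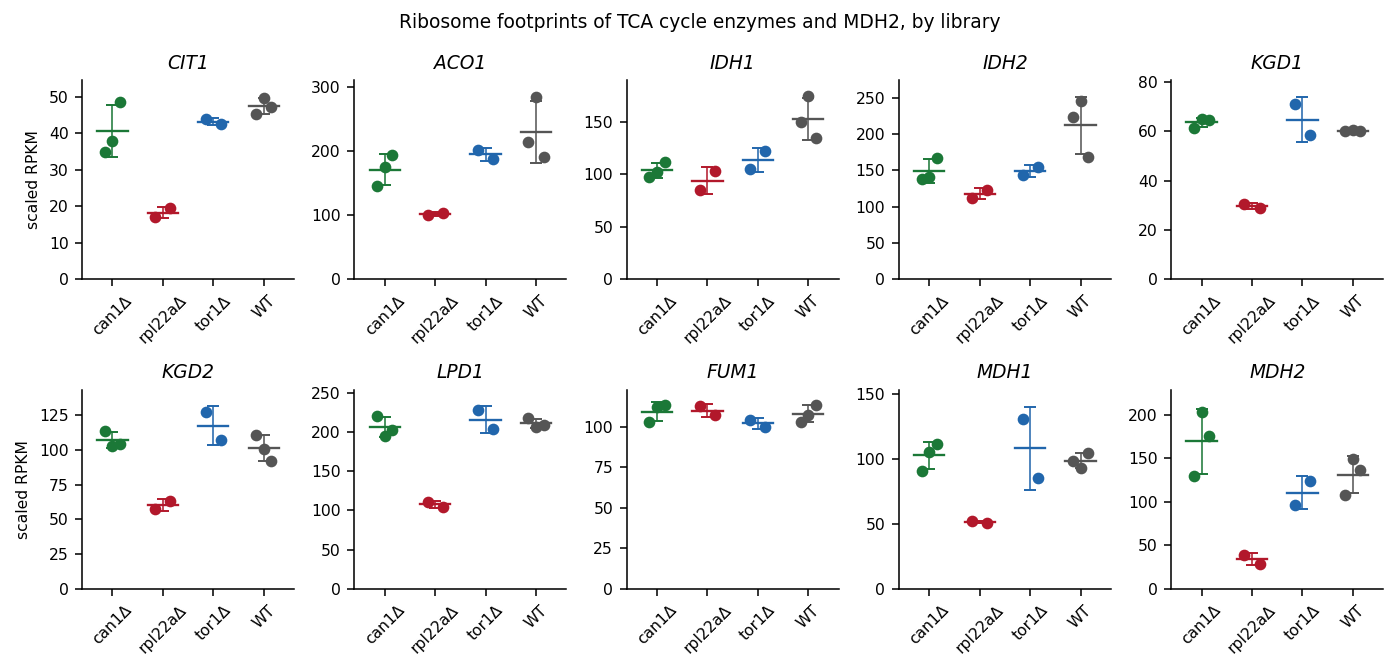
Footprint level of each gene in every library, in scaled RPKM on the vertical axis, with strains along the horizontal axis. Points are libraries, the horizontal bar is the mean and the whisker the SD. MDH2 is at 39.1 and 28.9 RPKM in rpl22aΔ, against 107, 150 and 136 RPKM in wild type. The FUM1 values of rpl22aΔ and wild type overlap.

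Footprints of CIT1 and ACO1, at the entry into the cycle, were lower in rpl22aΔ. CIT1 had 17.2 and 19.4 RPKM in rpl22aΔ, against 45.3, 49.8 and 47.3 RPKM in wild type, a log2 fold change of −1.33 ± 0.15 (SE; adjusted p = 0.000159). ACO1 had 100 and 104 RPKM in rpl22aΔ, against 214, 284 and 192 RPKM in wild type (−1.14 ± 0.16, adjusted p = 0.000935). For both genes the rpl22aΔ replicates were close to each other and the wild-type ACO1 values were the more scattered.

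Footprints of the isocitrate dehydrogenase subunits fell by less. IDH1 had 84.8 and 103 RPKM in rpl22aΔ, against 150, 174 and 134 RPKM in wild type (−0.70 ± 0.14, adjusted p = 0.00624). IDH2 had 112 and 123 RPKM in rpl22aΔ, against 223, 245 and 168 RPKM in wild type (−0.83 ± 0.16, adjusted p = 0.00443). The IDH1 call was lost without rpl22aΔ replicate 1 (adjusted p = 0.0628), which left 8 of 10 genes called. Both subunits also had their highest wild-type value in replicate 2.

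All 3 subunits of the alpha-ketoglutarate dehydrogenase complex in this set had lower footprint levels in rpl22aΔ. KGD1 had 30.7 and 28.7 RPKM in rpl22aΔ, against 60.0, 60.5 and 59.9 RPKM in wild type (−0.99 ± 0.12, adjusted p = 0.000268). KGD2 had 57.6 and 63.2 RPKM in rpl22aΔ, against 111, 101 and 92.2 RPKM in wild type (−0.73 ± 0.12, adjusted p = 0.00228). LPD1 had 111 and 104 RPKM in rpl22aΔ, against 218, 207 and 209 RPKM in wild type (−0.96 ± 0.10, adjusted p = 0.000124). The replicates of each of these genes were close to each other in both strains.

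At the end of the cycle, the footprint changes of fumarase and malate dehydrogenase differed. FUM1 had 113 and 107 RPKM in rpl22aΔ, against 103, 107 and 114 RPKM in wild type. Its log2 fold change was 0.03 ± 0.10 (adjusted p = 0.885), with a 95% interval from −0.20 to 0.25. This interval lies outside the fold changes of all 9 other genes. MDH1 had 52.0 and 50.9 RPKM in rpl22aΔ, against 98.1, 93.2 and 105 RPKM in wild type (−0.92 ± 0.16, adjusted p = 0.00326). MDH2, in the cytosol, had 39.1 and 28.9 RPKM in rpl22aΔ, against 107, 150 and 136 RPKM in wild type (−1.92 ± 0.21, adjusted p = 0.000186), a 3.78-fold lower level. Summed over the 10 genes the footprint level was 718 and 733 RPKM in rpl22aΔ, against 1330, 1471 and 1258 RPKM in wild type.

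Gene length and the share of reads in listed features were also considered for the rpl22aΔ footprints. With the trend of level on listed length taken out of each library, all 9 genes were still called. The smallest of these changes was then −0.65 for KGD2, and KGD1 stood at −0.71. Reads in listed features made up 80.6% of rpl22aΔ footprint replicate 1. In replicate 2 they made up 76.4%, the lowest of the footprint libraries, whose highest was 81.7%. Without that library 9 genes were still called, while the features called in all fell to 330, against 932 with it. Without rpl22aΔ replicate 1 they numbered 532, and 1404 with the replicate block.

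Set against the other deletion strains, rpl22aΔ had 7 genes lower in each case. Against can1Δ, the log2 fold changes were −1.09 ± 0.15 for CIT1, −0.73 ± 0.16 for ACO1, −1.07 ± 0.12 for KGD1 and −0.82 ± 0.12 for KGD2. They were −0.93 ± 0.10 for LPD1, −0.98 ± 0.16 for MDH1 and −2.28 ± 0.21 for MDH2, with 23.6% of features called in either direction and 12.8% lower. The limma adjusted p was 7.62e-05 for MDH2. The other 3 did not pass, with IDH1 at −0.15 ± 0.14 (adjusted p = 0.469), IDH2 at −0.33 ± 0.16 (adjusted p = 0.141) and FUM1 at 0.01 ± 0.10. Against tor1Δ the 7 genes lower were again CIT1, ACO1, KGD1, KGD2, LPD1, MDH1 and MDH2, while IDH1 (−0.27 ± 0.15) and IDH2 (−0.34 ± 0.17) did not pass, in a comparison where 14.7% of features were called and 8.18% were lower. These comparisons share the rpl22aΔ libraries. The ACO1 call against can1Δ was lost without either rpl22aΔ replicate (adjusted p up to 0.0641), and against tor1Δ it was lost without tor1Δ replicate 1 (adjusted p = 0.0649).

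In can1Δ footprints no TCA gene passed, in a comparison where 0.224% of features did. Of the 10 genes, 3 had an unadjusted p under 0.05 in limma, all with lower values in can1Δ, beside 4.73% of all features at that level. IDH1 had 97.4, 102 and 112 RPKM in can1Δ, against 150, 174 and 134 RPKM in wild type (−0.55 ± 0.12, adjusted p = 0.284). IDH2 had 138, 141 and 168 RPKM in can1Δ, against 223, 245 and 168 RPKM in wild type (−0.50 ± 0.14, adjusted p = 0.546). ACO1 had 146, 175 and 194 RPKM in can1Δ, against 214, 284 and 192 RPKM in wild type (−0.41 ± 0.15, adjusted p = 0.914). The groups overlapped for ACO1, and the highest can1Δ and the lowest wild-type IDH2 values both round to 168 RPKM. Replicate numbers were also used as a block, a pairing that the labels do not state and the libraries show only in part. With it 17 features were called instead of 11, none of them among the 10 genes, and the limma adjusted p was 0.142 for IDH1.

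The other genes had no unadjusted p under 0.05 in can1Δ footprints. CIT1 had 35.0, 38.0 and 48.5 RPKM in can1Δ, against 45.3, 49.8 and 47.3 RPKM in wild type (−0.24 ± 0.13, 95% interval −0.52 to 0.05), and its groups overlapped. KGD1 had 61.5, 64.9 and 64.5 RPKM in can1Δ, against 60.0, 60.5 and 59.9 RPKM in wild type. Its 95% interval was −0.15 to 0.31 on the log2 scale. The intervals were −0.24 to 0.16 for LPD1, −0.18 to 0.22 for FUM1, −0.16 to 0.32 for KGD2 and −0.27 to 0.37 for MDH1. MDH2 had 129, 203 and 176 RPKM in can1Δ, against 107, 150 and 136 RPKM in wild type (0.36 ± 0.19, adjusted p = 1.00). Its interval, −0.06 to 0.78, still allows a sizeable increase.

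In tor1Δ footprints no TCA gene passed either, and 0.0408% of features did. Here 2 genes had an unadjusted p under 0.05, beside 7.20% of all features. IDH1 had 105 and 122 RPKM in tor1Δ, against 150, 174 and 134 RPKM in wild type (−0.42 ± 0.14, adjusted p = 0.568). IDH2 had 143 and 155 RPKM in tor1Δ, against 223, 245 and 168 RPKM in wild type (−0.49 ± 0.16, adjusted p = 0.520). MDH1 was 131 and 85.4 RPKM in tor1Δ, a spread that takes in all 3 wild-type values. The deletions share the wild-type libraries, so the lower IDH1 and IDH2 values in all 3 strains are not separate observations. Set directly against tor1Δ, can1Δ had no TCA gene past the threshold, with 0.184% of features called. MDH2, at 129, 203 and 176 RPKM in can1Δ against 96.8 and 124 RPKM in tor1Δ, was the gene with an unadjusted p under 0.05 (0.60 ± 0.21, adjusted p = 0.488). That is 1 of 10, near the 9.63% of all features at that level. With the replicate block 92 features were called instead of 9, none of them among the 10 genes.

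In rpl22aΔ mRNA, MDH2 was the 1 of the 10 genes that passed. MDH2 mRNA was 28.7 RPKM in the rpl22aΔ library, against 74.1 and 67.0 RPKM in wild type (−1.27 ± 0.29, adjusted p = 0.00081). Since rpl22aΔ and tor1Δ have 1 mRNA library each, that library is assumed to vary like those of the other strains, and limma pooled the mRNA variance fully over genes of like level. In this comparison 3.65% of features passed and 2.4% were lower. The MDH2 call was lost with no scaling beyond the deposited RPKM and without wild-type replicate 1 (adjusted p = 0.0645).

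**Figure D2:**
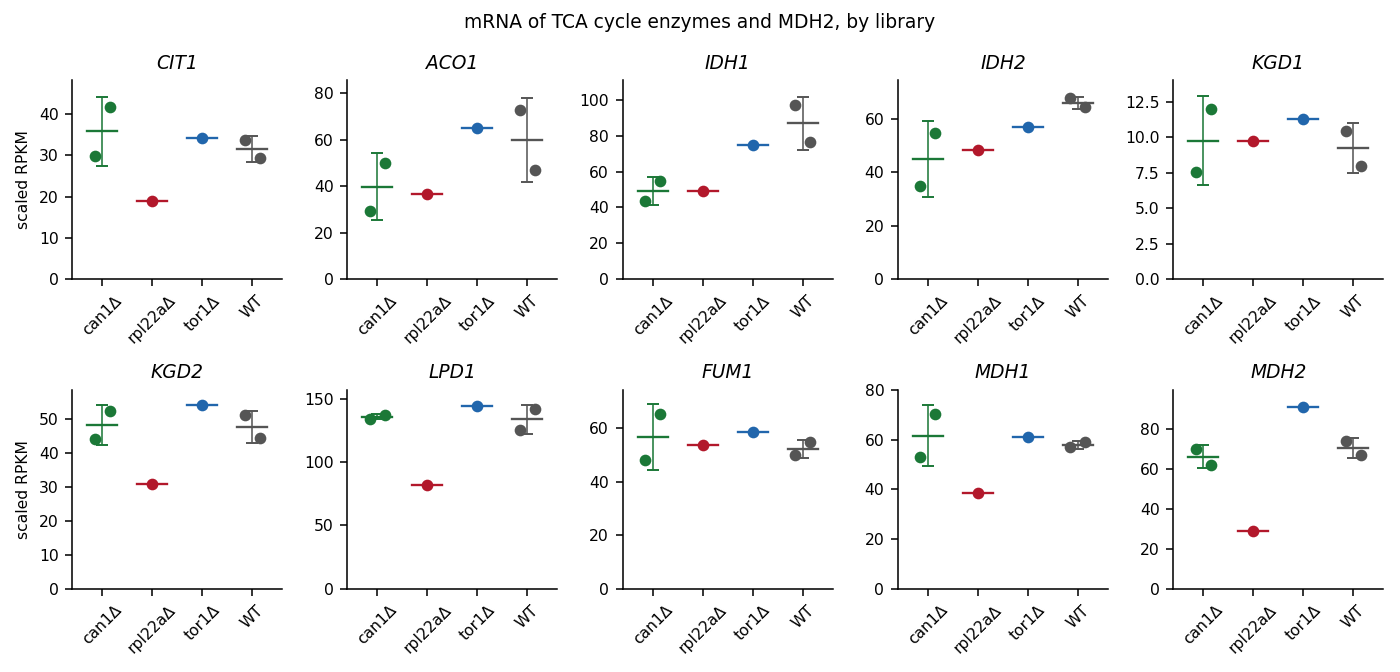
mRNA level of each gene in every library, in scaled RPKM on the vertical axis, with strains along the horizontal axis and points for single libraries. MDH2 is at 28.7 RPKM in the rpl22aΔ library, against 74.1 and 67.0 RPKM in wild type, while KGD1 at 9.77 RPKM lies between its wild-type values of 10.5 and 8.0 RPKM.

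The other rpl22aΔ mRNA values were mostly below wild type without passing. Of the 10 genes, 8 had a log2 fold change below 0, with a median of −0.63 over the 10, beside 0.018 over all features. In limma, 7 of the 10 had an unadjusted p under 0.05, beside 14.8% of all features. CIT1 mRNA was 19.0 RPKM in rpl22aΔ, against 33.8 and 29.4 RPKM in wild type (−0.70 ± 0.27, adjusted p = 0.137). LPD1 mRNA was 81.8 RPKM in rpl22aΔ, against 126 and 142 RPKM in wild type (−0.70 ± 0.30, adjusted p = 0.208). KGD1 and FUM1 were the exceptions. KGD1 mRNA was 9.77 RPKM in rpl22aΔ, against 10.5 and 8.0 RPKM in wild type (0.08 ± 0.27, 95% interval −0.45 to 0.62), and FUM1 mRNA was 53.7 RPKM, against 49.9 and 54.7 RPKM.

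Translational efficiency, the change in footprints beyond that in mRNA, did not pass for any TCA gene in any strain (limma interaction of strain and assay). The share of features called was 0.0204% in can1Δ, 0% in rpl22aΔ and 0% in tor1Δ. With the replicate block over wild type and can1Δ, 174 features were called in rpl22aΔ, none of them among the 10 genes, and the adjusted p of KGD1 was 0.0746. An unadjusted p under 0.05 was reached by 0, 2 and 0 of the 10 genes in can1Δ, rpl22aΔ and tor1Δ, and by 708 of 4897 features (14.5%) in rpl22aΔ. KGD1 in rpl22aΔ had a footprint fold change of −0.99 and an mRNA fold change of 0.08, which gave an efficiency change of −1.08 ± 0.29 (95% interval −1.70 to −0.46, adjusted p = 0.221). The corresponding changes were −0.63 ± 0.28 for CIT1, −0.65 ± 0.34 for MDH2 and −0.01 ± 0.23 for FUM1.

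**Figure D3:**
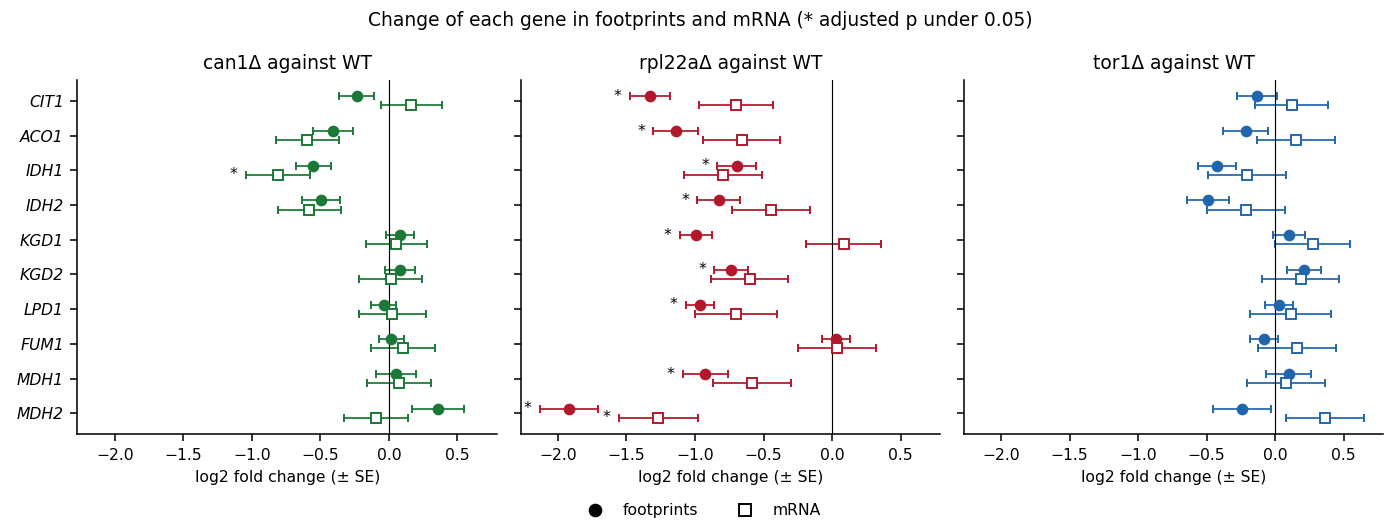
Log2 fold change against wild type, with SE, of each gene in footprints (filled circles) and mRNA (open squares) for can1Δ, rpl22aΔ and tor1Δ. In rpl22aΔ, 9 footprint values lie left of 0 and pass the threshold, and KGD1 has a footprint value of −0.99 and an mRNA value of 0.08.

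In can1Δ mRNA, IDH1 was the gene that passed. IDH1 mRNA was 43.6 and 54.5 RPKM in can1Δ, against 97.2 and 76.3 RPKM in wild type (−0.81 ± 0.23, adjusted p = 0.0396), where 1.4% of features passed and 0.492% were lower. The call was lost in each of the 4 fits that left out a library, with no scaling, with no filter on low levels, with the length trend removed and with an untrended variance. IDH2 mRNA was 34.8 and 54.8 RPKM in can1Δ, against 67.6 and 64.2 RPKM in wild type (−0.58 ± 0.23, adjusted p = 0.368). ACO1 mRNA was 29.5 and 49.9 RPKM in can1Δ, against 72.8 and 47.2 RPKM in wild type (−0.60 ± 0.23, adjusted p = 0.313), and its groups overlapped. In tor1Δ mRNA no TCA gene passed and none had an unadjusted p under 0.05, with 0.246% of features called.

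Among the other genes of the cycle, some fell in rpl22aΔ footprints. Of 7 tested, LSC2 and SDH1 fell and 5 did not pass, with a median log2 fold change of −0.29. SDH1, the flavoprotein of succinate dehydrogenase, had 6.31 and 4.02 RPKM in rpl22aΔ, against 18.8, 17.1 and 15.9 RPKM in wild type (−1.59 ± 0.19, limma adjusted p = 0.000295). LSC2, a subunit of succinyl-CoA ligase, averaged 36.0 RPKM in rpl22aΔ and 58.7 RPKM in wild type (−0.69 ± 0.11). The partner subunit LSC1 (−0.21 ± 0.12) did not pass. Neither did KGD4, a further subunit of the alpha-ketoglutarate dehydrogenase complex, which averaged 52.0 RPKM in rpl22aΔ and 63.7 RPKM in wild type. In rpl22aΔ mRNA, LSC2 (−1.36 ± 0.29), SDH1 (−1.24 ± 0.28) and SDH4 (−1.04 ± 0.26) were lower, and none of the 7 rose. These 3 mRNA calls were lost without wild-type mRNA replicate 1, and those of SDH1 and SDH4 also with no scaling.

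LPD1 also serves pyruvate dehydrogenase and glycine decarboxylase, whose other subunits did not all fall in rpl22aΔ footprints. The glycine decarboxylase subunits rose, GCV3 by 1.36 ± 0.11, GCV1 by 1.21 ± 0.16 and GCV2 by 1.19 ± 0.17 on the log2 scale. Of the pyruvate dehydrogenase subunits, PDA1 rose by 0.43 ± 0.11 and PDB1 fell by 0.44 ± 0.10, while LAT1 and PDX1 did not pass. Thus 4 of 7 rose and 1 fell, with a median of 0.43. The PDA1 call was lost in 2 and the PDB1 call in 1 of the 5 fits that left out a library. In rpl22aΔ mRNA, GCV2 was the 1 of these 7 genes that passed (1.33 ± 0.27), a call lost without wild-type mRNA replicate 2.

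Of the isozymes outside the cycle that are reported here, IDP1 was higher in rpl22aΔ footprints, and CIT2 and MDH3 did not pass. IDP1, the mitochondrial NADP-dependent isocitrate dehydrogenase, rose by 0.51 ± 0.12 on the log2 scale, a call lost in 1 of the 5 fits that left out a library. CIT2, the peroxisomal citrate synthase and a classic retrograde target, had 17.9 and 19.2 RPKM in rpl22aΔ, against 23.8, 35.6 and 29.3 RPKM in wild type (−0.63 ± 0.20, adjusted p = 0.0527). It averaged 51.6 ± 2.91 RPKM in tor1Δ (SD, n = 2) and 29.6 ± 5.91 RPKM in wild type (SD, n = 3), which did not pass in limma (0.80 ± 0.20, adjusted p = 0.329). MDH3, the peroxisomal malate dehydrogenase, was at −0.11 ± 0.09 in rpl22aΔ. Of the reactions that feed or drain the cycle, 2 of 5 genes were tested and neither passed.

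Mitochondrial carriers moved in both directions in rpl22aΔ footprints, with 4 of 9 higher, 2 lower and a median of 0.26. The pyruvate carrier subunit MPC2 rose by 1.22 ± 0.15, and the dicarboxylate carrier DIC1 rose by 1.23 ± 0.24, as did CTP1 (0.77 ± 0.19), a citrate carrier, and OAC1 (0.70 ± 0.20), an oxaloacetate carrier. The citrate and oxoglutarate carrier YHM2 fell by 0.97 ± 0.14, and ODC1, an oxodicarboxylate carrier, fell by 0.69 ± 0.19. The DIC1, CTP1, OAC1 and ODC1 calls were lost in 1, 2, 3 and 4 of the 5 fits that left out a library. In rpl22aΔ mRNA, OAC1 (1.18 ± 0.29) was higher, and YHM2 (−0.97 ± 0.31) and MPC3 (−1.17 ± 0.32) were lower, all calls that were lost without wild-type mRNA replicate 1. The YHM2 call was also lost without replicate 2. In tor1Δ mRNA, MPC3 was lower (limma adjusted p = 2.60e-10), listed at 0 in the tor1Δ library, against 4.50 and 3.75 RPKM in wild type, and that call was lost with the length trend removed.

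**Figure D4:**
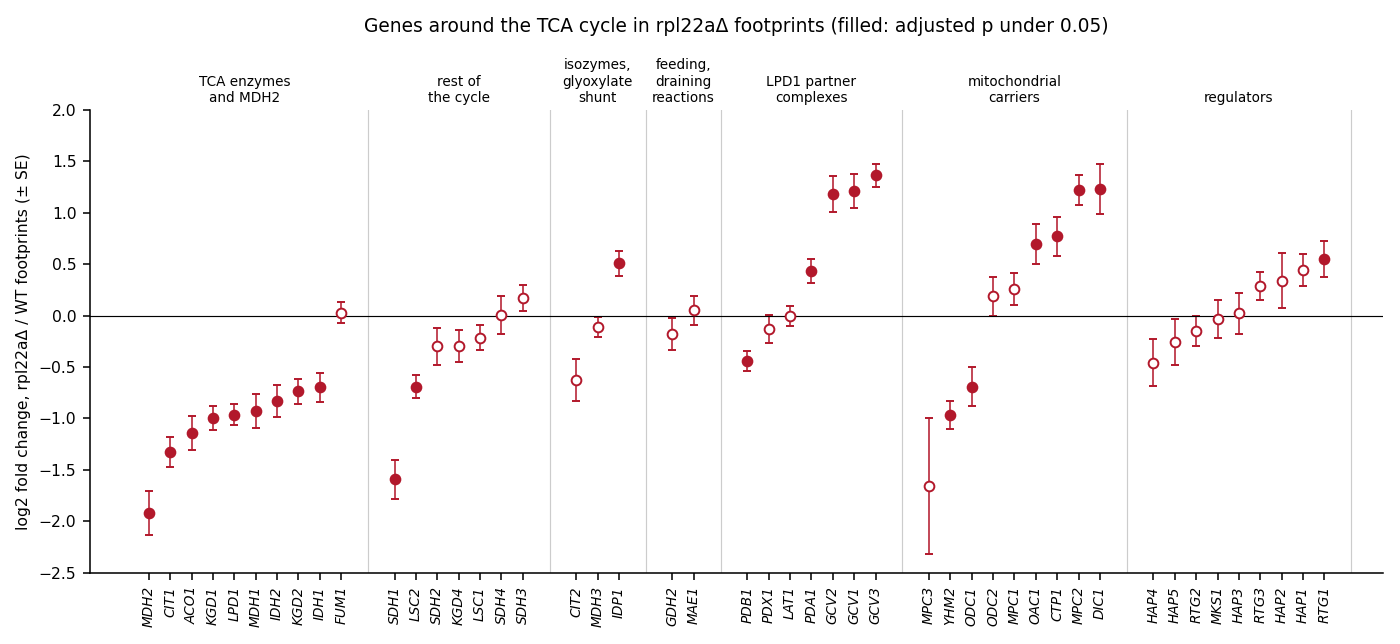
Log2 fold change of rpl22aΔ over wild-type footprints, with SE, for the 10 genes and genes of 6 lists around the cycle, ordered by value within each list. Filled points passed the threshold. The 10 genes lie at or below −0.70 except FUM1, while the GCV genes lie above 1.

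Among 9 regulators, RTG1 was higher in rpl22aΔ footprints (0.55 ± 0.17) and lost its call in 4 of 5 fits that left out a library. HAP4 footprints were at −0.46 ± 0.23 in rpl22aΔ (adjusted p = 0.191). In can1Δ, HAP4 mRNA was 15.6 and 19.7 RPKM, against 5.0 and 11.1 RPKM in wild type (1.12 ± 0.22, limma adjusted p = 0.000156), a call lost in 3 of the 4 fits that left out a library and with no filter on low levels. HAP4 footprints in can1Δ did not pass (0.34 ± 0.21). None of the 6 lists had a gene past the threshold in can1Δ or tor1Δ footprints.

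Ratios within an enzyme pair do not depend on scaling between libraries. The footprint ratio of MDH2 to MDH1 was 0.751 and 0.566 in rpl22aΔ, against 1.1, 1.60 and 1.30 in wild type, with no overlap. The 2 against 3 libraries cannot give an exact permutation p below 0.1, and the value was 0.1 (exact permutation, both sides), or 0.3 after adjustment over 15 such tests. The CIT1 to CIT2 ratio was 0.957 and 1.0 in rpl22aΔ and 0.818 and 0.857 in tor1Δ, against 1.90, 1.40 and 1.62 in wild type. Each was at the smallest possible p of 0.1 (exact permutation, both sides, 0.3 adjusted). So was the LPD1 to KGD2 ratio in can1Δ and in rpl22aΔ. Its geometric mean was 1.92 in can1Δ and 1.79 in rpl22aΔ, against 2.09 in wild type. The MDH2 to MDH1 ratio in tor1Δ was 0.741 and 1.46, so it rested on which library was read. The log2 difference from wild type was −0.83 without tor1Δ replicate 2 and 0.14 without replicate 1.

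**Figure D5:**
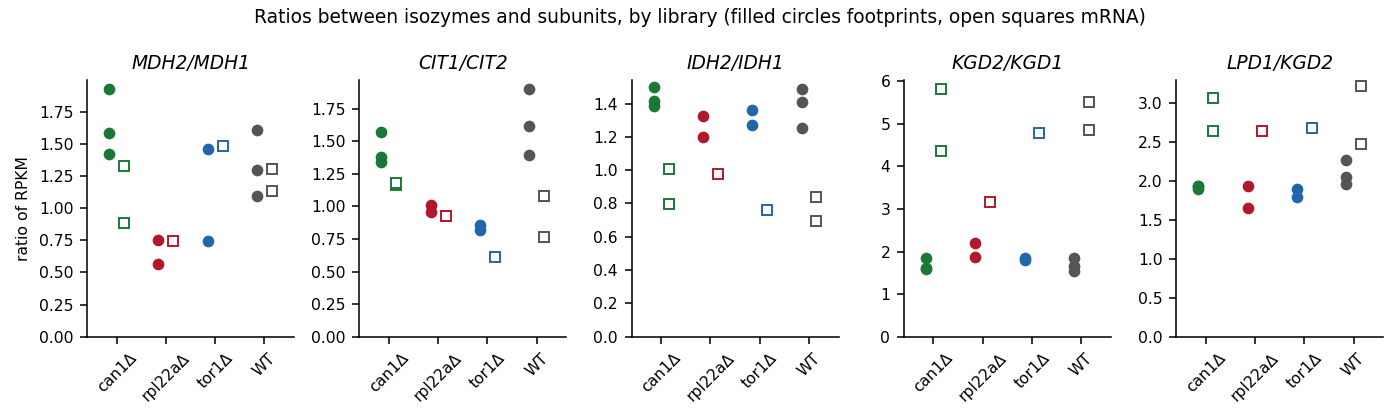
Ratio of scaled RPKM between 2 genes of a pair, for 5 pairs, in every footprint (filled circles) and mRNA (open squares) library. The MDH2 to MDH1 footprint ratio is 0.751 and 0.566 in rpl22aΔ, against 1.1, 1.60 and 1.30 in wild type.

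Over the 10 footprint libraries, the 10 genes varied together to different degrees. Pearson's r of the log2 levels was 0.98 between KGD1 and LPD1, 0.97 between KGD1 and MDH1 and 0.96 between IDH1 and IDH2. It was between 0.38 and 0.61 for IDH1 or IDH2 with KGD1, KGD2, LPD1, MDH1 or MDH2, and between −0.45 and 0.01 for FUM1 with the other 9. The 2 rpl22aΔ libraries lie apart for 9 of the genes, so the r values take in that difference, and the genes share libraries and depth. The 5 features outside the set whose profile was most like the mean of the 10 genes were FBA1 (r = 0.990) and PGK1 (0.984), both glycolytic enzymes, PET9 (0.990), the main ADP/ATP carrier, and ERG13 (0.987) and ERG6 (0.982), enzymes of sterol synthesis. Those most like MDH2 were NUP2 (0.990), URA4 (0.988), CSR1 (0.984), CRM1 (0.982) and CDC60 (0.980).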

How the data were processed

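Footprint and mRNA libraries were made with a ribosome profiling kit after RNase I digestion or alkaline hydrolysis (fragments of 50 to 75 bases), with cycloheximide in the lysate, per the labels' protocols. Reads were aligned with Bowtie 1.1.2 to build R64, per the submitters' processing notes. The handling of multiply matching reads is not stated in those notes or labels. The authors deposited RPKM per reading frame, per the file headers. Library totals and reads per gene were recovered from the even steps of low values (tolerance 0.05 reads). A mean of 2 runs was fitted for the rpl22aΔ mRNA library, mRNA replicate 2 of wild type and footprint replicate 1 of wild type, so their reads are approximate. Names and positions came from the R64 annotation.

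RPKM were scaled by trimmed means of M values within each assay (30% trimmed on fold, 5% on level). Features were kept if at least 2 footprint libraries, or 1 mRNA library, reached a level worth 10 reads at median depth and all libraries held at least 15 reads. They were tested with limma 3.58.1 (statmod 1.5.0, R 4.3.3) on log2(RPKM + 1), which understates changes of low genes. All strains shared 1 fit per assay, with trended robust variance and Benjamini-Hochberg adjustment over all features at 0.05. Translational efficiency was the interaction over 16 libraries, treated as independent although lysates were shared. The script was checked on simulated data with 1 setting of spread for all genes, which real libraries need not follow. There it recovered 81.5% of log2 changes of 1 and 100% of those of 2, with 7 false calls. All 10 genes, KGD4, and from the lists the genes past the threshold or the 3 with the smallest p, were named. The result of 1 gene is not reported here. The genes, lists and tests were chosen with earlier results of these data known.

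Same-number can1Δ and wild-type footprint libraries deviated together (r = 0.66, 0.25 and 0.43 over 3625 genes). Replicate 2 of can1Δ was nearly as close to wild-type replicate 3 (r = 0.22), and same-number mRNA libraries reached r = 0.10. The pairing is thus only partly seen in the data, and the labels name no shared batch. Alternatives varied scaling, pseudocount, filter, block, length trend, variance model, strains fitted and each library left out.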

Additional observations from a re-analysis of the deposited data

How the results depend on the processing

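The 9 calls in rpl22aΔ footprints against wild type held under all 16 alternatives except that IDH1 was lost without rpl22aΔ replicate 1, which left 8. Over the leave-one-out fits the count of genes called ranged from 8 to 9. When the deposited RPKM were left unscaled, the median over all features moved by 0.17 on the log2 scale and the split over all features became 886 higher and 293 lower, against 417 and 515 with scaling, while 9 genes stayed called. No TCA gene was called in can1Δ or tor1Δ footprints under any alternative run. The lowest adjusted p for IDH1 in can1Δ footprints was 0.0828, with the replicate block and only the strains compared, an alternative chosen after seeing the data, under which 28 features were called. For IDH2 it was 0.074, without wild-type footprint replicate 3. The replicate block changed no call of a TCA gene. Among the other named genes it ended those of RTG1 and ODC1 in rpl22aΔ footprints and GCV2 in rpl22aΔ mRNA. The block over all numbered libraries was not run for mRNA, since the lone libraries carry no number.

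The 1 call in can1Δ mRNA became 0 with no scaling, with no filter on low levels, with the length trend removed and with variance moderated without a trend, and was 0 to 0 over the leave-one-out fits. The 1 call in rpl22aΔ mRNA became 0 with no scaling, and ranged from 0 to 1 over the leave-one-out fits. Over all features, the calls in rpl22aΔ footprints numbered 1156 against can1Δ and 718 against tor1Δ, and with a library left out they ranged from 397 to 1298 and from 234 to 416. Against tor1Δ the block gave 1084. In mRNA the calls numbered 74 in can1Δ, 193 in rpl22aΔ and 13 in tor1Δ, with 132, 377 and 21 under the block, and with a library left out 4 to 154, 74 to 186 and 16 to 23. In tor1Δ footprints they numbered 2, with 9 under the block and 9 without tor1Δ replicate 2. No scaling shifted the median of all features by 0.21 in can1Δ and 0.26 in rpl22aΔ mRNA. The MDH2 to MDH1 ratio in tor1Δ ranged from −0.83 to 0.14 on the log2 scale over the leave-one-out values. No called value changed sign. Among the ratios, none of them called, the log2 difference of MDH2 to MDH1 in tor1Δ and of IDH2 to IDH1 and KGD2 to KGD1 in can1Δ changed sign when a library was left out. The cause of these losses was not tested. The fewest reads behind a level of the 10 genes were 96, and the effect of depth was not tested. The single rpl22aΔ and tor1Δ mRNA libraries limit what can be said of translational efficiency.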
